A study of Mus musculus with 12 samples.

Results

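The genes described here are 10 integrin subunits that were listed by name, and all 10 were found among the 48321 genes of the table. They are the α subunit genes Itga1, Itga5, Itga6, Itga7, Itga8, Itga11 and Itgav and the β subunit genes Itgb1, Itgb3 and Itgb5. All 10 passed the filter on low values (at least 10 normalized counts in at least 3 libraries), as did 11998 genes in all. RNAseq was performed on immortalized murine brown adipocytes in 12 libraries, 3 in each of 4 groups. The cells came from interscapular brown preadipocytes of the WT C57BL/6J strain, taken from 1 newborn mouse by the study's methods (the design text writes mice). They were immortalized with SV40 large T antigen and differentiated over 8 days. The first medium held 3-isobutyl methylxanthine, rosiglitazone, dexamethasone, insulin and triiodothyronine, and the later maintenance medium held only insulin and triiodothyronine of these. The vector cells carried the empty pLEX lentiviral vector. The tSema4B cells carried the same vector with a Flag-tagged truncated mouse Sema4B, a soluble mimetic of the form that the protease ADAM17 cleaves off. Each of these 2 stably transduced lines was kept for 6 h in serum-free medium with albumin, either unstimulated or with 2 μM norepinephrine (NE), and the 4 groups are named here by line and condition. Each construct was represented by 1 line, and the design text calls the 3 libraries of a condition technical replicates. The p-values below therefore cover the spread between these libraries and neither separate transductions nor, where libraries share a culture, separate cultures.

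Integrins are cell surface receptors made of an α and a β subunit, which together bind proteins of the extracellular matrix outside the cell and the actin cytoskeleton inside it. The α subunit largely sets the ligand. The subunits encoded by Itga5, Itgav and Itga8 recognise the RGD sequence of fibronectin, vitronectin, nephronectin and related proteins, those of Itga1 and Itga11 bind collagens, and those of Itga6 and Itga7 bind laminins. The β1 chain of Itgb1 can pair with every α chain in this list, whereas the β3 and β5 chains of Itgb3 and Itgb5 pair with αv. In adipose tissue, preadipocytes sit in a fibronectin-rich matrix, and mature adipocytes are wrapped in a basement membrane of laminin and collagen IV. An exchange of α5 for α6 integrin has been described for the step from preadipocyte to adipocyte.

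The bases upstream of the transcription start are shown for the 4 subunits that passed the test (adjusted p of 0.05 or less) as higher in tSema4B than in vector cells in both conditions. RefSeq promoters (GRCm38.p6) were matched for 7 of the 10 members. The window is the 250 bases before the annotated start, printed 5′ to 3′ on the strand of the gene, with motif matches in capitals. It is chr8:128685404-128685653, plus strand for Itgb1, chr15:103366792-103367041, minus strand for Itga5, chr2:83724147-83724396, plus strand for Itgav and chr2:12301945-12302194, minus strand for Itga8.
Itgb1: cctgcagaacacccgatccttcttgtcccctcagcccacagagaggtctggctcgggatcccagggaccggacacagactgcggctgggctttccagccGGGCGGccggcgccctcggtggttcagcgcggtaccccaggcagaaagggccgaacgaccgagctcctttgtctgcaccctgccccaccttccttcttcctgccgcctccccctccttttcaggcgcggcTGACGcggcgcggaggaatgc
Itga5: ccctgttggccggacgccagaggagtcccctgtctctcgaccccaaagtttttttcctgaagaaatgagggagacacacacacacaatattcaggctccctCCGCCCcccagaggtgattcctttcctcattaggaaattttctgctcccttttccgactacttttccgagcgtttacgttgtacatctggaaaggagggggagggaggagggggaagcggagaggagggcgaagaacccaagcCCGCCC
Itgav: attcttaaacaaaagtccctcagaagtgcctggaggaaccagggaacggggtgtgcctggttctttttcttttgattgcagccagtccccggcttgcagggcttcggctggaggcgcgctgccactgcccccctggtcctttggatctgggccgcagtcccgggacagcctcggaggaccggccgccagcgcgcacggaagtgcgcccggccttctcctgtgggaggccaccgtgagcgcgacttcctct
Itga8: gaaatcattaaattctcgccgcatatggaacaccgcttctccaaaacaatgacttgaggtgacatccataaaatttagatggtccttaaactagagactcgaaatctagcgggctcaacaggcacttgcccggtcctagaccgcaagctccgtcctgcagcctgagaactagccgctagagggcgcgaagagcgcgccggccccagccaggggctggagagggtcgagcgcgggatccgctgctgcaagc
Both strands were searched for TGACGTCA (the cAMP response element), TGACG (its shorter form, contained in TGACGTCA), TGANTCA (AP-1), GGGCGG (the GC box) and TATAAA (the TATA box). The Itgb1 window held a GC box from base 151 to base 146 before the start and TGACG from base 21 to base 17. That of Itga5 held 2 GC boxes, at bases 149 to 144 and at bases 6 to 1, both read on the opposite strand. Itgav and Itga8 held none of these letter strings. Among the other matched members, Itgb5 held 3 GC boxes and Itga1 and Itga11 held no match. Of 32851 promoter windows of the same length in the mouse table, 32.7% held a GC box, 17.8% TGACG, 6.75% TGANTCA, 12.4% TATAAA and 1.55% TGACGTCA. The G and C content was 68% for Itgb1, 64.4% for Itgav, 56.4% for Itga8 and 55.6% for Itga5, with a median of 52.4% over all windows. A match is a description of letters, and its use in these cells was not measured.

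Values are normalized read counts, the reads on a gene after the authors' DESeq2 scaling, and are given as mean ± SD (n = 3). The log2 fold changes are differences of log2(normalized count + 1) from limma, with their standard errors (SE). A gene passed the test at an adjusted p of 0.05 or less after Benjamini-Hochberg adjustment over all 11998 genes, and the further limit of a log2 fold change of 1 that the study used is counted separately. Reads on genes ranged from 2000780 to 5409583 per library, and vector libraries held more reads than tSema4B libraries of the same condition. Sema4b, the transduced gene, averaged 116797 ± 6692 normalized counts in the unstimulated vector group and 281514 ± 31108 in its tSema4B counterpart. After NE it averaged 74266 ± 8219 and 234276 ± 32374. For tSema4B cells these values do not separate construct from endogenous transcripts. In every library, vector libraries included, Sema4b ranked at place 3 or higher among all genes by normalized count. The source of its reads in vector cells was not tested. Sema4b took 2.04% to 4.02% of the normalized counts of a vector library and 7.01% to 10.2% of a tSema4B library. Mitochondrially encoded genes took 13.4% to 16.7% and 6.91% to 7.89%, respectively.

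To compare the 10 subunits with one another, levels were set side by side as normalized counts per kilobase of annotated exon. Itgb1 had the highest level per kilobase in each group, with 628 ± 23.9 in vector unstimulated, 878 ± 98.9 in tSema4B unstimulated, 588 ± 37.1 in vector NE and 788 ± 38.2 in tSema4B NE. Itga5 came next with 73.1 ± 11.5, 97.0 ± 14.1, 69.7 ± 5.39 and 126 ± 11.9 per kilobase in the same order of groups. Itgav followed with 36.2 ± 1.58, 51.0 ± 1.66, 39.3 ± 6.81 and 56.7 ± 7.95. In all 4 groups the libraries of these 3 genes did not overlap with one another or with those of the subunit below. Itgb1 made up 80.3% of the summed level per kilobase of the 10 members in unstimulated vector cells, and 76.6% when the longest transcript was used as the length.

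**Figure D1:**
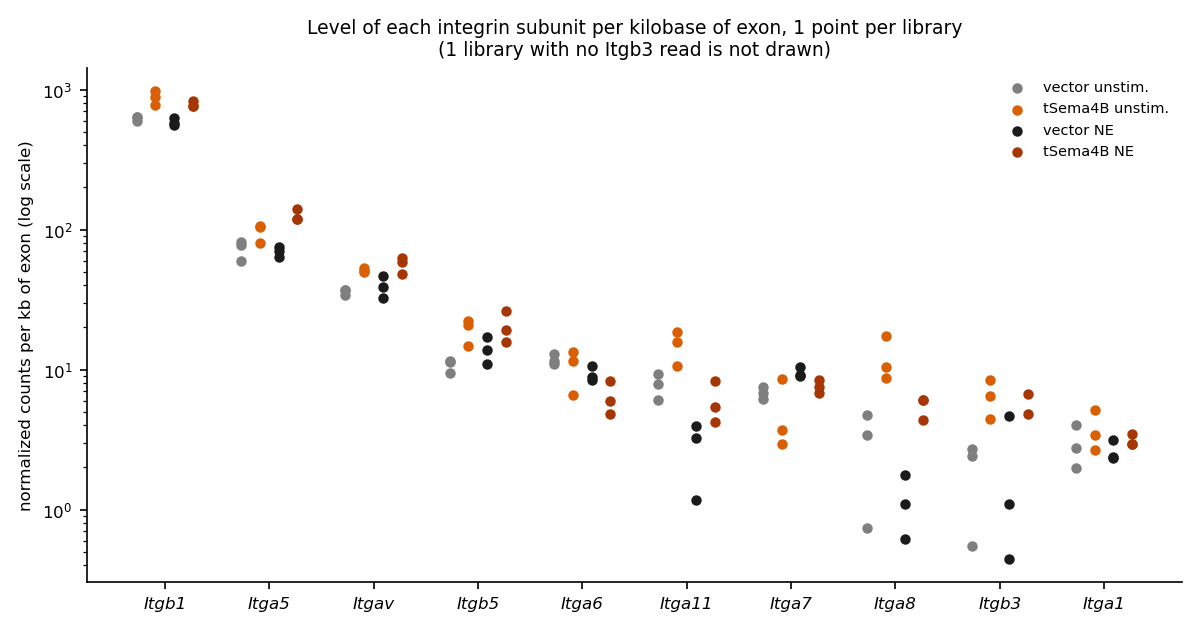
Level of each integrin subunit per kilobase of exon on a log axis, 1 point per library, with the 4 groups in separate colours and genes ordered from high to low. Itgb1, Itga5 and Itgav stand above the other 7 subunits, whose group means lie between 1.16 and 20.4 normalized counts per kilobase; 1 tSema4B NE library without an Itgb3 read is not drawn.

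The remaining 7 subunits had group means between 1.16 and 20.4 normalized counts per kilobase. In unstimulated vector cells they followed in the order Itga6, Itgb5, Itga11, Itga7, Itga8, Itga1 and Itgb3, and neighbours overlapped except for the steps from Itgb5 to Itga11 and from Itga7 to Itga8. In unstimulated tSema4B cells the order was Itgb5, Itga11, Itga8, Itga6, Itgb3, Itga7 and Itga1, and each overlapped with the next. Itga8 was thus at place 8 of 10 in vector cells and at place 6 in tSema4B cells without stimulation, and after NE it was at place 10 in vector cells and at place 8 in tSema4B cells. These orders depend on the length used. Per kilobase of the longest transcript Itga8 was at places 9 and 7 without stimulation and 10 and 7 after NE, and Itga6 was at place 4 instead of 7 in unstimulated tSema4B cells. After NE the steps from Itgb5 to Itga7 in both lines and from Itga6 to Itga11 in vector cells were free of overlap, and the other neighbours below Itgb5 overlapped.

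Per kilobase, Itgb1 provided between 96.6% and 98.2% of the 3 β subunits in each library. The summed level of the 7 α subunits per kilobase was 141 ± 13.7 in vector unstimulated, 194 ± 20.6 in tSema4B unstimulated, 134 ± 11.3 in vector NE and 211 ± 20.4 in tSema4B NE. The β to α ratio of these sums was 4.56 ± 0.521, 4.64 ± 0.162, 4.52 ± 0.560 and 3.86 ± 0.224 in the same order. Itga5 provided 51.4% ± 3.72, 49.9% ± 5.12, 51.9% ± 2.93 and 59.7% ± 2.67 of the α sum, and its share in the 3 tSema4B NE libraries (56.9% to 62.2%) lay above that in the other 9 libraries (45.8% to 55.6%). These shares depend on the length used. Per kilobase of the longest transcript, Itga5 made up 42.5%, 42.4%, 42.1% and 51.4% of the summed α group means in the same order. The sums and ratios above are given for exon length only. All of these values are a description and were not tested.

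Next, tSema4B cells were compared with vector cells without stimulation. In this comparison, 4 of the 10 subunits were higher in tSema4B cells (Itgb1, Itgav, Itga5 and Itga8) and 0 were lower. Of all tested genes 13% passed, with 5.64% of all tested genes higher and 7.39% lower. Itga8 was the only subunit that also passed the log2 fold change limit of 1, where 1.11% of all genes were higher. The log2 fold change was positive for 8 subunits and negative for 2, with a median of 0.49 against -0.003 over all tested genes. The libraries of 6 subunits lay wholly above those of vector cells and 0 lay wholly below, and over all genes 14.2% lay wholly above and 15.1% wholly below.

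After NE, 5 of the 10 subunits were higher in tSema4B cells, namely the same 4 and Itga11, and 0 were lower. The background was 21%, with 9.79% higher and 11.2% lower. Both limits were passed by Itga8 and Itga11, with 2.03% of all genes higher by both. The median log2 fold change of the 10 members was 0.47 against -0.01 for all genes, and 8 values were positive. The libraries were apart for 7 subunits, 5 of them higher and 2 (Itga6 and Itga7) lower, where 17.9% of all genes were apart as higher and 19.8% as lower. The comparisons before and after NE share no library, but they compare the same 2 lines. They also share the estimate of spread, which comes from all 12 libraries.

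**Figure D2:**
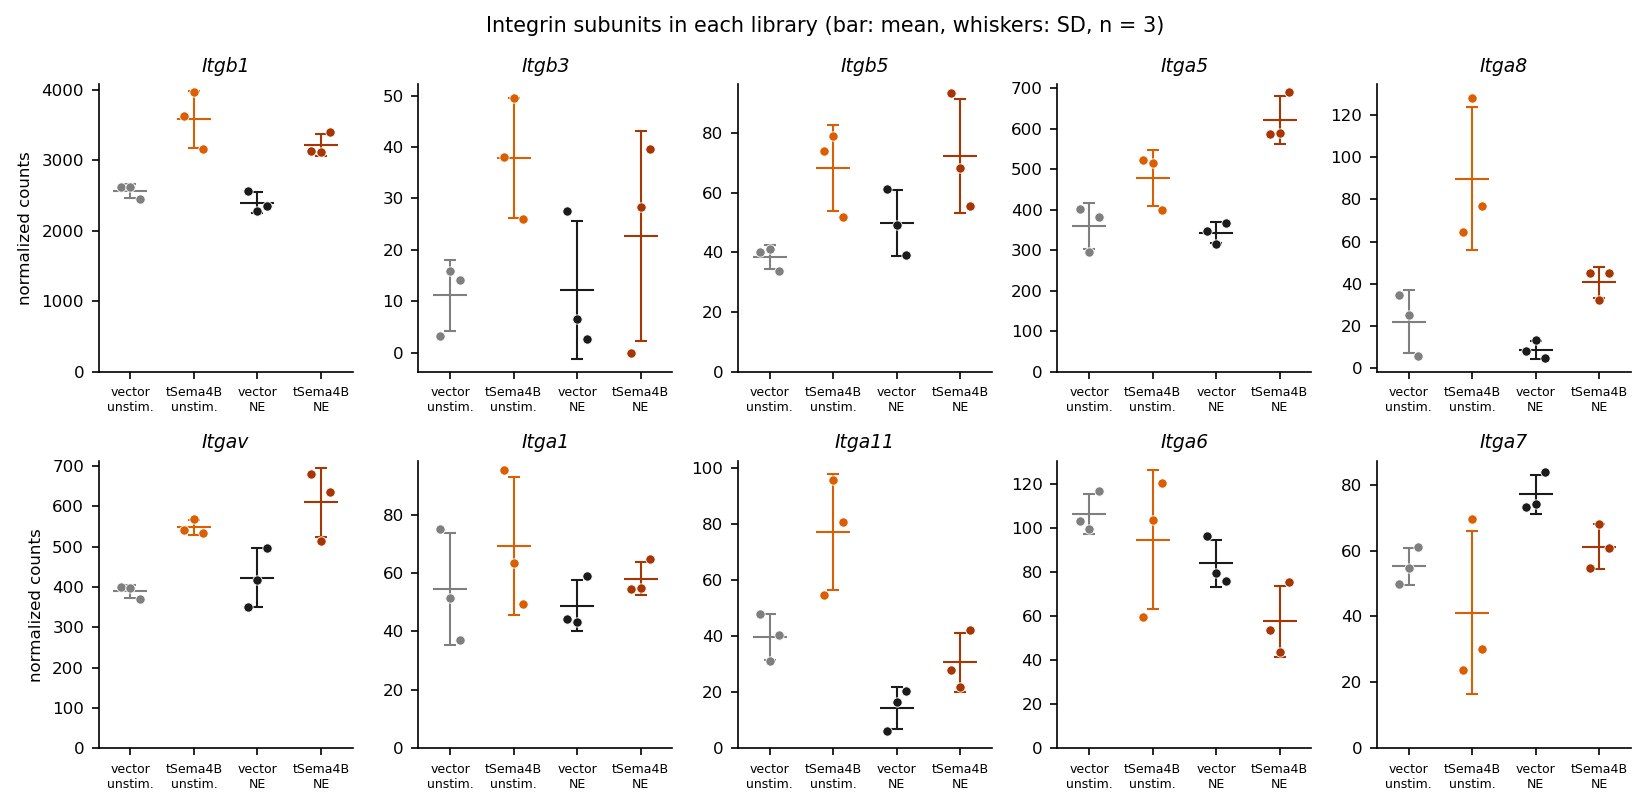
Normalized counts of the 10 integrin subunits, 1 panel per gene on its own scale, with 1 point per library, a bar for the mean and whiskers for the SD of 3 libraries. Itgb1, Itgav, Itga8 and Itga11 are higher in all 3 tSema4B libraries than in all 3 vector libraries both unstimulated and after NE. Itga11 is also lower after NE in both lines.

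Itgb1 encodes the β1 chain, the shared partner of most matrix-binding integrins. The gene (ENSMUSG00000025809.15) lies on chromosome 8 from 128685654 to 128733200 on the plus strand of GRCm38. Its normalized counts in replicates 1, 2 and 3 were 2620.4, 2616 and 2449 in vector unstimulated and 3630.3, 3962 and 3158 in tSema4B unstimulated. After NE they were 2569, 2277 and 2351 in vector and 3132, 3119.8 and 3396 in tSema4B. Every tSema4B library was above every vector library, before and after NE. Its mean rose from 2562 ± 97.3 to 3583 ± 404 without NE, 1.40-fold (log2 fold change 0.48, SE 0.0801, adjusted p = 2.07e-04). The rise after NE was from 2399 ± 152 to 3216 ± 156, 1.34-fold (log2 fold change 0.42, adjusted p = 5.85e-04). NE itself moved it by -0.10 in vector cells and -0.15 in tSema4B cells on the log2 scale (adjusted p = 0.518 and 0.303).

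Itgb5, whose β5 chain pairs with αv and binds vitronectin, is located on chromosome 16 from 33829665 to 33949338 (ENSMUSG00000022817.15). It had 40.2, 41.2 and 33.8 normalized counts in vector unstimulated and 73.9, 78.9 and 52.0 in tSema4B unstimulated. These groups did not overlap, and the log2 fold change of 0.80 (SE 0.271) was just outside the limit with an adjusted p of 0.0553. After NE it had 61.1, 49.2 and 39.3 in vector and 93.3, 68.2 and 55.5 in tSema4B, which overlapped (log2 fold change 0.52, adjusted p = 0.191). The unstimulated difference passed with a common total over all genes (adjusted p = 0.0494), with quantile normalization (0.0437) and with DESeq2 on whole reads (0.0455). It also passed with replicate numbers as a block (0.0388) and without tSema4B replicate 3 (0.0309). These were 4 of 12 other alternatives and 1 of 6 fits with a library left out. Over all fits of these 2 kinds the adjusted p reached 0.122 and 0.165, respectively.

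Itgb3 encodes the β3 chain of the vitronectin receptor αvβ3 and lies on chromosome 11 from 104608000 to 104670476 (ENSMUSG00000020689.4). It was read at 0 to 41 reads per library. The normalized counts were 3.26, 15.98 and 14.2 in vector unstimulated, 38.1, 49.5 and 26.0 in tSema4B unstimulated, 27.5, 6.52 and 2.62 in vector NE, and 0, 28.4 and 39.6 in tSema4B NE. All unstimulated tSema4B libraries were above the unstimulated vector libraries, whereas after NE the groups overlapped. The log2 fold changes of 1.87 (SE 0.974, adjusted p = 0.234) and 0.21 (adjusted p = 0.910) did not pass. The former passed in a fit of only the 6 unstimulated libraries (adjusted p = 0.0280). This was 1 of 11 other alternatives, over which its adjusted p reached 0.425. It passed in 0 of 6 fits with a library left out (adjusted p from 0.247 to 0.553). The value after NE rests on the tSema4B library without a read, and without it (replicate 1) it was 1.91 (adjusted p = 0.0589), against -0.76 to 1.02 when any other library was left out.

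Among the RGD-binding α subunits, Itga5, Itgav and Itga8 were all higher in tSema4B cells in both conditions. Itga5 encodes the α5 chain, which forms the main fibronectin receptor with β1. It lies on chromosome 15 from 103344286 to 103366763 on the minus strand (ENSMUSG00000000555.8). The libraries had 402, 296 and 383 normalized counts in vector unstimulated and 522, 515 and 398 in tSema4B unstimulated. Here the lowest tSema4B library was below the highest vector library. After NE they had 348, 315 and 368 in vector and 588, 589 and 689.7 in tSema4B, with no overlap. Itga5 rose 1.33-fold without NE, from 360.4 ± 56.5 to 479 ± 69.5 (0.41 on the log2 scale, SE 0.133, adjusted p = 0.0438), and 1.81-fold after NE, from 344 ± 26.6 to 622 ± 58.6 (log2 fold change 0.85, adjusted p = 7.20e-05). The unstimulated call was close to the limit. It was lost without vector replicate 2 (log2 fold change 0.27, adjusted p = 0.249) or 3 (adjusted p = 0.0524), without tSema4B replicate 1 (0.156) or 2 (0.142), and under 4 other alternatives (adjusted p from 0.0625 to 0.108).

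Whether the difference between the lines in Itga5 depended on the condition was tested as an interaction. The log2 fold change after NE exceeded that without NE by 0.44 (SE 0.188, unadjusted p = 0.0277, adjusted p = 0.402), so the difference did not pass the test. In tSema4B cells Itga5 was higher in all 3 NE libraries than in all 3 unstimulated libraries, and its log2 fold change was 0.38 (adjusted p = 0.0920). In vector cells it was -0.06 (adjusted p = 0.852).

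Itgav encodes αv, the α chain of the vitronectin receptors and of integrins that release latent TGFβ. The gene is found on chromosome 2 from 83724397 to 83806916 (ENSMUSG00000027087.11). Its normalized counts were 399.6, 398 and 369 in vector unstimulated, 541, 568 and 534 in tSema4B unstimulated, 351, 418 and 498 in vector NE, and 679, 514 and 636 in tSema4B NE. In both conditions the tSema4B libraries were above the vector libraries, and the spread within groups was wider after NE. The mean rose from 389 ± 17.0 to 548 ± 17.8 without NE (1.41-fold, 0.49 on the log2 scale with an SE of 0.125, adjusted p = 0.0101) and from 422 ± 73.2 to 609 ± 85.4 after NE (1.44-fold, log2 fold change 0.53, adjusted p = 0.00393). Its exons share 634 bases with the antisense transcript Gm13684, which had 0 to 6 reads per library.

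With all libraries, Itga8 had the largest fold change of the 10 in both conditions. It encodes the α8 chain, the receptor of nephronectin in the kidney and a marker of some fibroblasts and smooth muscle cells, and lies on chromosome 2 from 12106632 to 12301922 on the minus strand (ENSMUSG00000026768.10). The libraries had 34.8, 25.2 and 5.45 normalized counts in vector unstimulated and 64.4, 128 and 76.7 in tSema4B unstimulated. After NE the values were 8.06, 13.0 and 4.58 in vector and 45.0, 32.2 and 44.9 in tSema4B. No tSema4B library reached down to the vector libraries of its condition, and vector replicate 3 was the lowest of its group in both conditions, with 5 and 7 reads. The increase was 4.12-fold without NE, from 21.8 ± 14.9 to 89.8 ± 34.0 (2.25 on the log2 scale, SE 0.502, adjusted p = 0.00360), and 4.76-fold after NE, from 8.56 ± 4.25 to 40.7 ± 7.38 (log2 fold change 2.21, adjusted p = 0.00301). Without unstimulated vector replicate 3 the former was 1.51 (adjusted p = 0.0245), below that of Itgb3 in the same fit (2.15), which did not pass (adjusted p = 0.247). An antisense gene, E030013I19Rik, shares 372 exon bases with Itga8 and had 0 reads in every library.

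The collagen-binding α subunits differed in what passed. Itga11 encodes α11, a receptor of fibrillar collagens on fibroblasts, and lies on chromosome 9 from 62677826 to 62783982 (ENSMUSG00000032243.8). It had 47.8, 31.1 and 40.3 normalized counts in vector unstimulated and 54.8, 95.9 and 80.8 in tSema4B unstimulated. After NE it had 6.05, 16.6 and 20.3 in vector and 27.9, 21.8 and 42.3 in tSema4B. The tSema4B libraries were above the vector libraries in each condition, and in each line the NE libraries were below the unstimulated ones. The line difference passed after NE, from 14.3 ± 7.39 to 30.6 ± 10.5 (1.14 on the log2 scale, SE 0.394, adjusted p = 0.0423), and not without it (39.7 ± 8.35 against 77.2 ± 20.8, log2 fold change 0.92, adjusted p = 0.132). The call after NE was lost without vector replicate 1 (log2 fold change 0.66, adjusted p = 0.260), without tSema4B replicate 1 (0.0665) or 3 (0.167), with edgeR (0.0576) and under 4 other alternatives (0.0570 to 0.114).

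Itga1, whose α1 chain prefers the collagen IV of basement membranes, lies on chromosome 13 from 114953096 to 115101964 (ENSMUSG00000042284.10). It had 74.9, 51.3 and 37.0 normalized counts in vector unstimulated, 95.3, 63.4 and 49.3 in tSema4B unstimulated, 44.3, 43.3 and 58.9 in vector NE, and 54.7, 54.9 and 64.7 in tSema4B NE. The groups overlapped in every comparison. The log2 fold changes between lines were 0.35 and 0.26 (adjusted p = 0.488 and 0.583). Leaving out 1 library at a time gave 0.10 to 0.61 without NE and 0.18 to 0.40 after NE. Itga1 shares 685 exon bases with Gm49395 on the same strand, and how the authors counted reads there is not given in the sources used here.

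The laminin-binding subunits Itga6 and Itga7 had negative fold changes between the lines with all libraries, and neither passed the test. Itga6 encodes the α6 chain and lies on chromosome 2 from 71745616 to 71858416 (ENSMUSG00000027111.15). It had 103, 99.2 and 117 normalized counts in vector unstimulated, 59.6, 104 and 120.5 in tSema4B unstimulated, 96.1, 79.4 and 75.9 in vector NE, and 53.6, 43.6 and 75.3 in tSema4B NE. Only after NE were all tSema4B libraries below all vector libraries, by a margin of 75.9 to 75.3. The log2 fold change was -0.22 (SE 0.254, adjusted p = 0.633) without NE and -0.56 (adjusted p = 0.123) after NE, and the latter passed without tSema4B NE replicate 3 (-0.77, adjusted p = 0.0495). Leaving out 1 library at a time gave -0.43 to 0.07 without NE, so the sign turned, and -0.77 to -0.39 after NE.

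Itga7 encodes the α7 chain, the main laminin receptor of muscle, and lies on chromosome 10 from 128933818 to 128958282 (ENSMUSG00000025348.9). The libraries had 49.95, 54.7 and 61.0 normalized counts in vector unstimulated, 23.8, 69.6 and 30.1 in tSema4B unstimulated, 73.2, 74.1 and 83.8 in vector NE, and 54.7, 68.2 and 60.8 in tSema4B NE. Of the unstimulated tSema4B libraries, replicate 2 was above all vector libraries and the other 2 were below them. The log2 fold change was -0.56 (SE 0.304, adjusted p = 0.252) without NE and -0.33 (adjusted p = 0.486) after NE. Without that replicate the unstimulated value was -1.01 (adjusted p = 0.0152). Over each library left out in turn it ran from -1.01 to -0.26, with an adjusted p of at most 0.664.

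**Figure D3:**
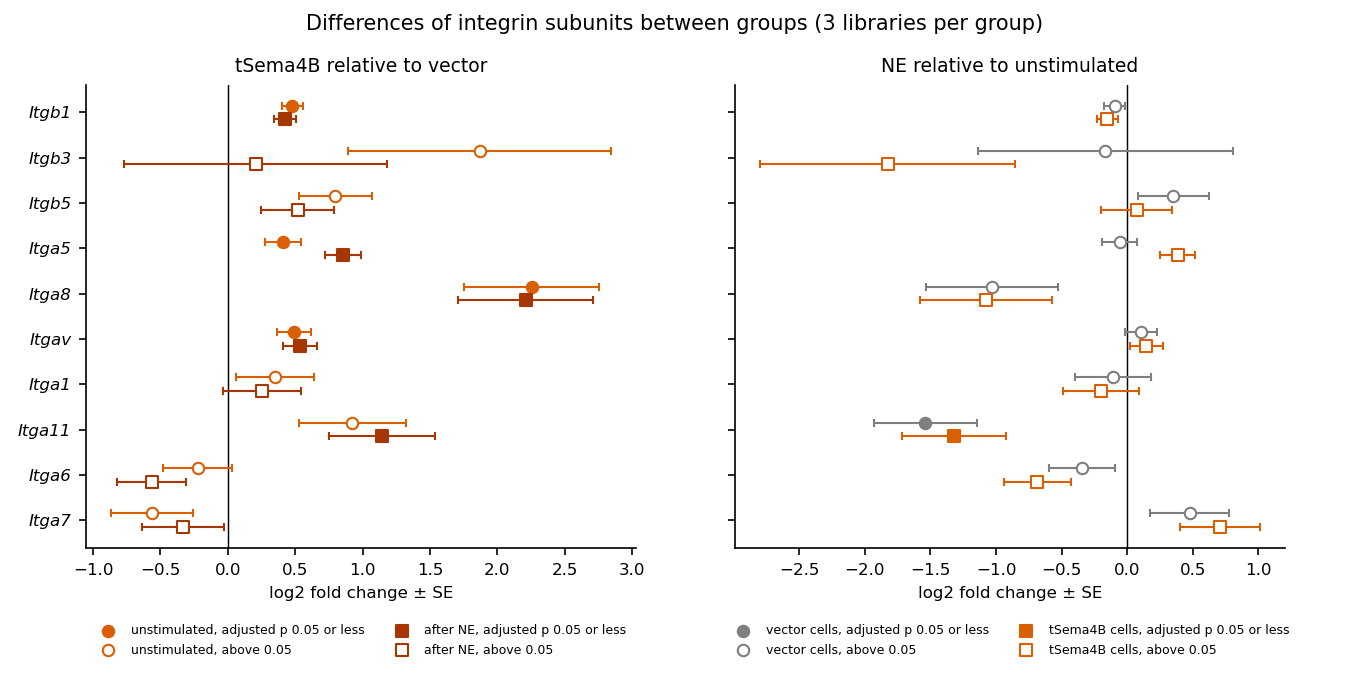
Fitted log2 fold changes of the 10 integrin subunits with their SE, tSema4B relative to vector on the left and NE relative to unstimulated on the right, with filled symbols where the adjusted p is 0.05 or less. Itgb1, Itga5, Itga8 and Itgav are filled in both conditions on the left, and Itga11 is the only subunit filled on the right.

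NE was then compared with no stimulation within each line. In vector cells 1 of the 10 subunits passed, Itga11, which fell to 0.360 of its unstimulated mean, from 39.7 ± 8.35 to 14.3 ± 7.39 (-1.54 on the log2 scale, SE 0.394, adjusted p = 0.0129). Over all genes 11.6% passed, and 4.78% were lower. In tSema4B cells Itga11 was again the only subunit that passed and fell to 0.397 of its mean, from 77.2 ± 20.8 to 30.6 ± 10.5 (log2 fold change -1.32, adjusted p = 0.0488), where 6.25% of all genes passed and 2.58% were lower. Both falls also passed the fold change limit, where 0.975% and 0.758% of all genes were lower by both. The call in vector cells was lost without unstimulated replicate 1 (adjusted p = 0.0649) or NE replicate 1 (-1.05, adjusted p = 0.0886). That in tSema4B cells was lost without unstimulated replicate 2 (0.161) or 3 (0.120), without NE replicate 1 (0.0975) or 2 (0.158), and under 5 other alternatives (adjusted p of at most 0.118).

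Itga8 and Itgb3 did not pass in either line. The mean of Itga8 went from 21.8 ± 14.9 to 8.56 ± 4.25 in vector cells (log2 fold change -1.03, adjusted p = 0.216) and from 89.8 ± 34.0 to 40.7 ± 7.38 in tSema4B cells (-1.08, adjusted p = 0.233). The groups overlapped in vector cells and not in tSema4B cells. The difference in vector cells passed with DESeq2 on whole reads (-1.34, adjusted p = 0.0471) and without unstimulated replicate 3 (-1.78, adjusted p = 0.0124). Over each library left out in turn it ran from -1.78 to -0.54, with an adjusted p of at most 0.631. Itgb3 had fold changes of -0.17 (adjusted p = 0.946) and -1.83 (adjusted p = 0.306) on the log2 scale, and its groups overlapped in both lines. Leaving out 1 library at a time gave -0.98 to 0.51 in vector cells and -2.80 to -0.12 in tSema4B cells, the last of these without the NE library that had no Itgb3 read. Itga7 had values of 0.48 (adjusted p = 0.368) in vector cells and 0.71 (adjusted p = 0.187) in tSema4B cells, and the latter passed without unstimulated tSema4B replicate 2 (1.16, adjusted p = 0.0118). Other single libraries left out lowered it to as little as 0.40 (adjusted p = 0.524). Itga6 had -0.34 (adjusted p = 0.452) and -0.68 (adjusted p = 0.119), and the latter passed without unstimulated tSema4B replicate 1 (-0.98, adjusted p = 0.0226). Over each library left out in turn the latter ran from -0.98 to -0.48, with an adjusted p of at most 0.358. The remaining subunits (Itga1, Itgav, Itgb1 and Itgb5) had adjusted p-values of 0.303 or more in both lines. The median log2 fold change of the 10 members with NE was -0.10 in vector cells and -0.18 in tSema4B cells, against -0.02 and -0.005 for all genes.

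No subunit passed the test of the interaction between tSema4B and NE in limma (0 of 10, with 3 of 11998 genes or 0.025% passing), in edgeR (0) or in DESeq2 (0). At an unadjusted p under 0.05 there was 1 member, Itga5, where 10.2% of all genes were under that value.

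In RNA of whole cultures, fewer cells of a type and less RNA per cell cannot be told apart. Over all tested genes, 5.64% were higher and 7.39% lower in tSema4B cells without NE, and 9.79% and 11.2% after NE. The adipocyte markers moved with the comparison of lines. All 14 of 14 were lower in tSema4B cells in both conditions, with sums of 43443 to 49808 normalized counts in vector against 7526 to 10272 in tSema4B unstimulated, and 58411 to 70385 against 11721 to 13317 after NE. Ucp1 had no read in unstimulated tSema4B cells. Of the fibroblast and preadipocyte markers, 7 of 11 tested were higher in tSema4B cells without NE (sums of 5834 to 5962 against 8262 to 9199) and 8 of 11 after NE (4374 to 4568 against 7292 to 7956), and 0 were lower in either condition. Smooth muscle and pericyte markers had sums of 1015 to 1474 in vector and 1338 to 1504 in tSema4B unstimulated, and 829.8 to 1091 and 689 to 1002 after NE, with 0 and 1 of 7 passing (Tagln, lower after NE). Myh11, the defining gene of mature smooth muscle, had no read in 3 of the 4 groups. Skeletal muscle, endothelial and macrophage markers summed to at most 35.6, 23.3 and 24.6 normalized counts in any library, and Myod1, Myog, Pax7, Kdr, Tie1, Adgre1 and Ptprc had no read at all. Acta1, the skeletal muscle actin gene and the only marker of its list tested, was lower in tSema4B cells in both conditions, at 16.9 ± 7.09 against 1.59 ± 2.75 normalized counts without NE (log2 fold change -3.23, adjusted p = 0.00643) and 23.8 ± 5.03 against no read after NE. The part of these markers in the differences of the integrin subunits was not tested.

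With NE, 3 adipocyte markers were higher and 2 lower in vector cells, and 5 were higher and 0 lower in tSema4B cells. The shares over all tested genes were 6.82% higher and 4.78% lower in vector cells, and 3.68% and 2.58% in tSema4B cells. Of the 11 fibroblast and preadipocyte markers tested, 1 was higher and 4 were lower in each line. Of the 7 smooth muscle and pericyte markers tested, 1 was lower in vector cells and 3 in tSema4B cells, and 0 were higher in either. The median sum of this list went from 1467 to 966 normalized counts in vector cells and from 1417 to 970.5 in tSema4B cells. Csf1r, the receptor of macrophage colony-stimulating factor and the only macrophage marker tested, was higher with NE in both lines, at 1.37 ± 0.708 against 11.5 ± 2.50 normalized counts in vector cells and 1.31 ± 1.37 against 15.8 ± 5.42 in tSema4B cells. The part of these in the fall of Itga11 was not tested either.

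The other subunits of the family were not part of the orders and sums per kilobase above. Of 17 further integrin genes, 4 passed the filter (Itga2b, Itga3, Itgb7 and Itgb8) and 13 did not, and Itgax and Itgb2l had no read. None of these 4 passed the test in any of the 5 comparisons. Itga3, a laminin receptor chain, had group means from 15.3 ± 8.07 to 39.1 ± 12.5 normalized counts. Itga2b was read in all 12 libraries, with group means from 23.1 ± 3.34 in vector unstimulated to 44.9 ± 10.7 in tSema4B NE. Itgb7 and Itgb8 had group means of at most 12.0 ± 7.00 and 14.8 ± 7.33. Itga4 and Itga9, which encode further chains of fibronectin and tenascin receptors, had at most 2 and 4 reads in a library. The leukocyte genes Itgal, Itgam and Itgb2 had at most 5, 1 and 5 reads.

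Ligands and partners of the 10 subunits were then counted in lists. Of all tested genes, 5.64% were higher and 7.39% lower in tSema4B cells without NE, and 9.79% and 11.2% after NE. Of the 10 collagen genes tested, 8 were higher in tSema4B cells without NE and 7 after NE, and 0 were lower. Col1a1 and Col3a1, the main fibrillar collagens, passed both limits in each condition. Col1a1 rose from 5737 ± 124 to 11724 ± 913 without NE (log2 fold change 1.03, adjusted p = 5.68e-10) and from 4660.3 ± 408 to 9721 ± 355 after NE (1.06). Col3a1 rose from 6905 ± 402 to 14462 ± 1061 (1.07) and from 6490.5 ± 715 to 14650.1 ± 673 (1.18). Col1a2 passed both limits after NE, from 9196 ± 498 to 19708 ± 1139 (1.10). With NE, 4 of the collagen genes in vector cells and 6 in tSema4B cells were lower and 0 higher. Of all genes, 4.78% and 2.58% were lower.

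Of 20 tested ligands of the fibronectin and RGD group, 10 were higher and 0 lower in tSema4B cells without NE. After NE 9 were higher and 3 lower. Of all genes, 13% passed without NE and 21% after NE. Fn1, the fibronectin gene, named here after its values were seen, rose from 5415 ± 314 to 9125 ± 885 (log2 fold change 0.75, adjusted p = 2.33e-07) and from 3978 ± 216 to 7550.4 ± 554 (0.92, adjusted p = 1.02e-08). Without NE both limits were passed by Lrrc32, which tethers latent TGFβ to the cell surface (6.18 ± 4.15 to 36.9 ± 15.3, log2 fold change 2.47), and by Tnc, the tenascin C gene (185 ± 11.6 to 383 ± 81.4, 1.02). After NE the genes past both limits were lower in tSema4B cells, namely the fibrinogen genes Fgg (166 ± 46.1 to 7.59 ± 3.65, -4.32) and Fgb (46.3 ± 16.7 to 7.00 ± 2.48, -2.55) and Npnt, which encodes nephronectin (41.5 ± 4.78 to 20.05 ± 9.90, -1.14).

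The same group responded to NE in both directions, with 7 genes higher and 4 lower in each line. Of all genes, 6.82% were higher and 4.78% lower with NE in vector cells, and 3.68% and 2.58% in tSema4B cells. In vector cells the largest rises were those of Fgb, which went from no read to 46.3 ± 16.7 normalized counts and was at least 15.3-fold higher against 3 reads per library, Fgg (3.10 ± 2.05 to 166 ± 46.1), Lrrc32 (6.18 ± 4.15 to 112 ± 32.8) and Fga (4.99 ± 5.23 to 47.7 ± 11.4). In tSema4B cells these 4 genes also rose, Lrrc32 from 36.9 ± 15.3 to 194 ± 82.5, Fga by at least 4.197-fold, Fgg by at least 1.85-fold and Fgb by at least 1.70-fold. Such bounds cover counting error only.

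**Figure D4:**
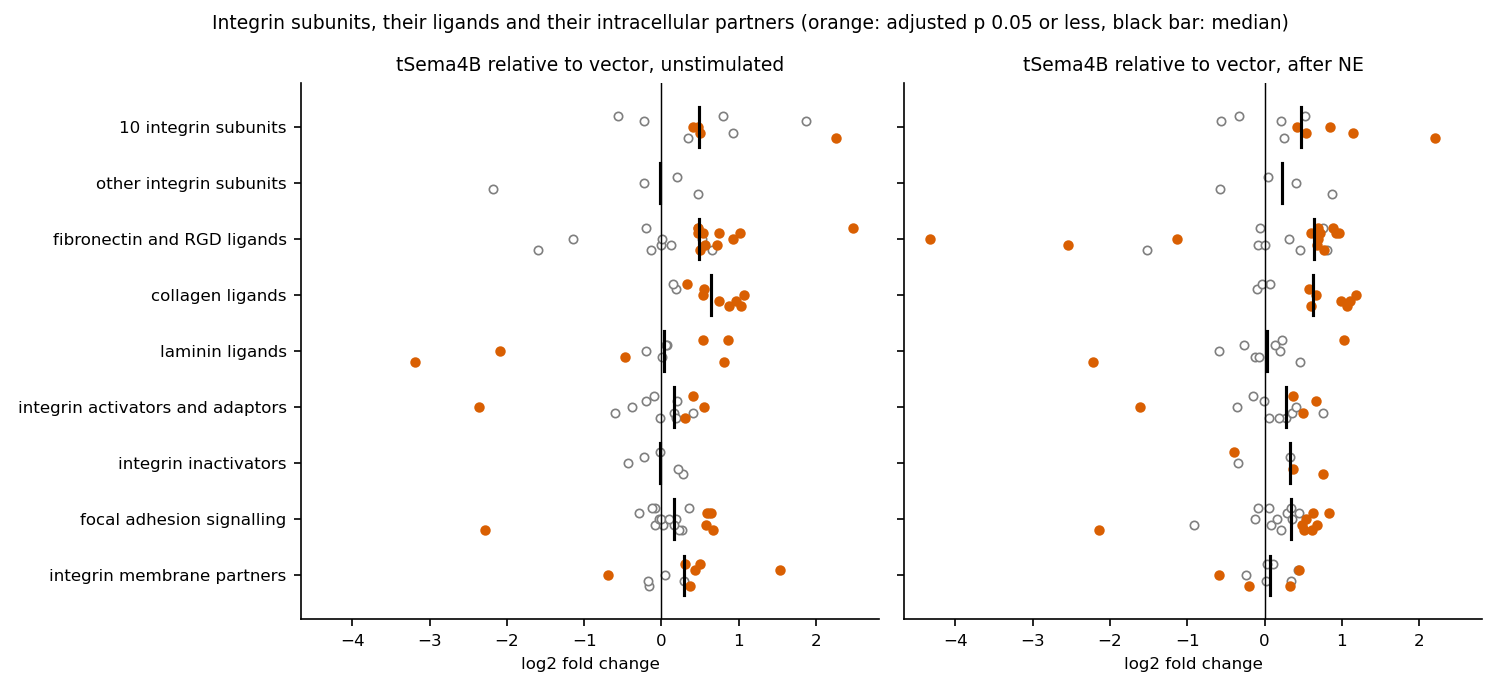
Log2 fold changes of tSema4B relative to vector, without stimulation on the left and after NE on the right, for the 10 integrin subunits and 8 lists of related genes, 1 point per tested gene, orange where the adjusted p is 0.05 or less and with a black bar at the median of the list. The median is 0.64 for collagens and 0.48 for fibronectin and RGD ligands without NE, and 0.03 for laminins.

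The laminin and nidogen genes that passed went in both directions. Of 10 tested, 3 were higher and 3 lower in tSema4B cells without NE, where 13% of all genes passed. After NE 1 was higher and 1 lower, where 21% of all genes passed. The medians of the list were 0.03 and 0.04. Lamb3, which encodes a chain of epithelial laminin, passed both limits without NE and went from 21.3 ± 5.53 to at most 2 reads per library, at least 5.19-fold lower. After NE, Lamb3 was at least 1.98-fold lower, and Nid2, which links laminin to collagen IV, rose from 887 ± 110.2 to 1809.6 ± 261 (1.03). With NE, 1 was higher and 2 lower in vector cells, and 1 was higher and 1 lower in tSema4B cells. Of all genes, 11.6% and 6.25% passed.

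Inside the cell, integrins are switched on by talins and kindlins and held by the complex of ILK, PINCH and parvin. Of all genes, 13% passed between the lines without NE and 21% after NE. Of the 13 activators and adaptors tested, 3 were higher and 1 lower in tSema4B cells in each condition. The lower gene was Kank1, which encodes a talin-binding protein at the rim of adhesions (52.9 ± 10.3 to 10.2 ± 5.03 without NE, log2 fold change -2.35, and 46.6 ± 7.09 to 21.0 ± 19.9 after NE, -1.61). Of 5 inactivators 0 passed without NE, and 2 were higher and 1 lower after NE. With NE, 3 activators and adaptors were lower in vector cells and 2 in tSema4B cells, and 0 were higher. Among 5 inactivators, NE was followed by 1 higher and 1 lower in vector cells and 1 higher in tSema4B cells. The share of all genes that passed with NE was 11.6% in vector cells and 6.25% in tSema4B cells.

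Between the lines, 5.64% of all genes were higher and 7.39% lower without NE, and 9.79% and 11.2% after NE. Of 19 tested genes of focal adhesion signalling, 4 were higher and 1 lower in tSema4B cells without NE. After NE 7 were higher and 1 lower. The lower gene was Ptk2b, which encodes the kinase PYK2 (43.7 ± 22.8 to 8.61 ± 5.15, log2 fold change -2.29, and after NE 38.6 ± 20.1 to 12.7 ± 13.8, -2.14). Ptk2, the gene of focal adhesion kinase, was also named after its values were seen and did not pass in either condition (-0.08 and 0.06, adjusted p = 0.773 and 0.825). With NE, 3 genes of this list were lower in vector cells, and 1 was higher and 1 lower in tSema4B cells. Among 10 membrane partners, 5 were higher and 1 lower without NE, and 2 were higher and 2 lower after NE. Plaur, the urokinase receptor, passed both limits without NE (12.9 ± 6.55 to 37.6 ± 14.4, log2 fold change 1.53). NE was followed by 2 higher and 3 lower partners in vector cells and by 2 of each in tSema4B cells. Of all genes, 11.6% and 6.25% passed with NE. These lists were counted beside the members and were not tested as sets.

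The gene with the most similar pattern to each of 9 subunits was taken as the tested gene outside the family with the highest Pearson correlation of log2 values over the 12 libraries. For Itga11 this was Cnn2, which encodes calponin 2 (r = 0.94). Itga5 was closest to Lhfp (0.96), Itgav to Arf4 (0.95), Itga8 to Ammecr1l (0.95) and Itga7 to Bnip3l (0.95). The values were lower for Itga6 with Gm340 (0.90), Itgb5 with Masp1 (0.89), Itgb3 with Rnd2 (0.88) and Itga1 with Fam175a (0.88). Among the members themselves the highest value was that of Itga8 with Itgb1 (0.88), followed by Itga5 with Itgav (0.81), and the lowest was that of Itga5 with Itga6 (-0.58). These values describe the 12 libraries, which share 4 groups and differ in depth, and carry no test.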

How the data were processed

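Total RNA of 12 libraries of differentiated immortalized brown adipocytes was turned into full-length cDNA by SMART-Seq2 and sequenced from Nextera XT libraries. After a screen for foreign reads, the authors used STAR 2.7.9a (mm10, GRCm38.p4), htseq-count and DESeq2. The deposited signal is the resulting normalized count per gene. The gene annotation and strand setting are not given in the sources used here. Every value above 0 was a whole number of reads times a factor of its library (tolerance 0.01), so whole reads were recovered.

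Groups were taken from the sample titles. Values were log2-transformed with a pseudocount of 1 and a gene was kept where 3 libraries or more had 10 normalized counts or more. All 4 groups entered a model in limma 3.58.1 in R 4.3.3 (trended moderated variance, two-sided, Benjamini-Hochberg adjustment over all 11998 genes) for 5 comparisons, which was tested on simulated data. Depth was 2000780 to 5409583 reads on genes. Alternatives were another pseudocount (0.5 or 10), filter (none or 50), scaling, tool (edgeR 4.0.16, DESeq2 1.42.0 on whole reads) or fold change limit, thinning to 2000780 reads, a fit of only the groups compared, a replicate block and each library left out. Exon lengths and positions came from GENCODE vM21 (GRCm38) and promoters from RefSeq (GRCm38.p6).

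The members and the gene lists were chosen with earlier results of these data known. All 10 members are named in every comparison. Of each list, up to 4 genes past both limits are named, and for each member the non-family gene with the highest correlation. Some genes that this rule names are not reported here. A fold against a group whose libraries all have at most 3 reads is given as a bound against 3 reads. Protein sequences were planned and are not used here.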

Additional observations from a re-analysis of the deposited data

How the results depend on the processing

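Directions held for every called value under every alternative run. Between the lines, Itgb1, Itgav and Itga8 kept their calls on adjusted p in both conditions under all alternatives run, and so did Itga5 after NE. Only Itga8 of these also passed the fold change limit. The count of 4 subunits past the test without NE became 1 when the fold change limit was also required (Itga8), and the count of 5 after NE became 2 (Itga8 and Itga11). The count of 1 for NE in vector cells became 2 with DESeq2 on whole reads, where Itga8 was added. The count of 1 for NE in tSema4B cells (Itga11) became 0 with a pseudocount of 0.5, with no filter, with a common total over nuclear genes, with quantile normalization and with only the 2 groups compared. Leaving out each library in turn gave 3 to 5 subunits between the lines without NE, 4 to 5 after NE, 0 to 2 for NE in vector cells, 0 to 2 for NE in tSema4B cells and 0 to 0 for the interaction. The share of Itgb1 per kilobase was 80.3% with all exons and 76.6% with the longest transcript. The causes were not tested. Of the values of single subunits, 341 kept their side of the threshold when a library was left out, 6 gained a call and 13 lost one. Under the other alternatives 565 kept it, 6 gained a call and 14 lost one. Both counts of kept values include values that had no call to lose, so they do not give the share of calls kept. No scaling moved the median of all genes by more than 0.1 on the log2 scale.

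Replicate numbers did not pair the libraries. Deviations from group means of libraries with the same number had correlations of -0.047 to 0.028 over 18 pairs, and 0 pairs passed 0.1. With the replicate number as a block, 5, 5, 1, 1 and 0 subunits passed in the 5 comparisons, and the 1 call that it added was that of Itgb5 between the unstimulated lines. Depth limits Itgb3, Itga8 and Itga11 most, with at most 41, 83 and 62 reads in a library.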
